A study of Mus musculus with 4 samples.

Results

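The G1 cyclins and CDK inhibitors described here are 10 genes, 5 of them cyclins (*Ccnd1*, *Ccnd2*, *Ccnd3*, *Ccne1*, *Ccne2*) and 5 of them inhibitors (*Cdkn1b*, *Cdkn1c*, *Cdkn2a*, *Cdkn2b*, *Cdkn2c*). All non-control array probes that carry one of these gene names were taken, which gave 15 probes of the 39429 on the array, 7 for cyclins and 8 for inhibitors. RNA came from NIH-3T3:Per2-Luc, a mouse fibroblast line that carries luciferase under the *Per2* promoter, grown to confluence in DMEM with serum. The 4 conditions were a control without H2O2 (0 mM, medium replaced with fresh medium, labelled 4 h) and cells taken 4 h, 20 h or 32 h after cOS-pulse, a critical oxidative stress of 5 mM H2O2 for 10 min. All 4 shared the reporter line, and no other genotype or agent entered the arrays. Each condition had 1 array, and all 4 arrays were on 1 slide, so no test was possible and every ratio over the control rests on the same control array. No control at 20 h or 32 h was among the 4 arrays. In the ratios at those hours, the pulse and the later time cannot be told apart.

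In the G1 phase, D-type cyclins activate CDK4 and CDK6, and E-type cyclins then activate CDK2, which together release E2F factors from the retinoblastoma family of pocket proteins. The Cip/Kip inhibitors p27 (*Cdkn1b*) and p57 (*Cdkn1c*) bind cyclin-CDK complexes, whereas the Ink4 inhibitors p16 (*Cdkn2a*), p15 (*Cdkn2b*) and p18 (*Cdkn2c*) bind CDK4 and CDK6. In fibroblasts, cyclin D1 is known as the member that follows growth factor signals, and NIH-3T3 lines are known to have lost the Ink4a/Arf locus that holds *Cdkn2a*.

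A level is given below as the log2 signal of a probe on a scale whose 0 is the 75th percentile of its array. A probe counted as detected where the scanner software marked its spot as well above background, and the error given with a log2 ratio is the error that the software assigns to both spots. For bright probes this error was 0.20. Among probes printed on 10 spots and detected on both arrays, the SD of the single-spot log2 ratio of 4 h over control had a median of 0.055 (228 probes), 0.042 at mean levels over 0 (127 probes) and 0.21 at mean levels under -2 (45 probes). Neither value covers differences between cultures. Where a gene had 2 probes, they are called brighter and dimmer by their mean signal, and their levels are not set against each other, since each probe has its own affinity. Positions of probes are those of the array annotation on mm9.

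Detected probes made up 52.7% to 59.1% of each array. All 13 probes of 10 fibroblast markers, among them *Col1a1*, *Vim* and *Thy1*, were detected on all 4 arrays, with a log2 summed signal of 9.99 to 10.1. Within this list, *Pdgfrb* was at least 2-fold lower at 4 h (-1.35), as were 4.94% of all probes on the array. *Thy1* (-1.39), *Col1a1* (-1.06) and *Col3a1* (-1.02) were so at 20 h, the last 2 under 2 of the 5 other scalings. At 20 h this held for 1.87% of all probes. *Col1a1* (-0.71) and *Fn1* (-0.68) passed 2-fold at 4 h under 2 and 3 of the 5 other scalings, in that order. No probe of the muscle markers *Myod1*, *Myog* and *Des*, of the leukocyte marker *Ptprc*, or of the epithelial markers *Epcam*, *Cdh1*, *Krt18* and *Krt19* was well above background. The epithelial list still moved with the 4 h array through *Krt8*. Its log2 summed signal was 0.50 at 4 h and -0.62 to -0.29 on the other 3 arrays, and that of the leukocyte list was 1.41 in the control and 1.69 to 2.18 after the pulse, through *Cd14*, *Cd68* and *Cd3e*. The endothelial list (*Pecam1*, *Cdh5*, *Kdr*) had 1.69 in the control and 2.05 to 2.11 after the pulse. The part of these lists in the results below was not tested.

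Of the 15, 9 probes of 6 genes were detected on all 4 arrays, namely those of *Ccnd1*, *Ccnd2*, *Ccnd3*, *Ccne1*, *Cdkn1b* and *Cdkn2c*. The other 6 probes, of *Ccne2*, *Cdkn1c*, *Cdkn2a* and *Cdkn2b*, were detected on none. Over the whole array, 49.96% of probes were detected on all 4 arrays and 36.9% on none. None of the 15 spots was flagged as an outlier or saturated on any array.

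4 h after cOS-pulse, all 9 detected probes of the G1 genes were below the control, the cyclin D1 probe, both cyclin D3 probes and 1 of the 2 p27 probes by more than 2-fold. The median log2 ratio of these 9 probes was -0.94, beside 0.17 over the 20392 probes detected on both arrays, of which 8120 were below the control. 4 of the 15 probes were at least 2-fold lower, those of *Ccnd1*, both of *Ccnd3* and the brighter of *Cdkn1b*, where the background was 4.94% of all probes on the array and 7.91% of those detected on both arrays. None of the 15 was at least 2-fold higher (background 6.77% of all probes and 8.63% of those detected on both arrays). The 6 measured cyclin probes ranged from -1.49 to -0.09 and the 3 measured inhibitor probes from -1.02 to -0.47. All 9 stayed below 0 under each of 5 other scalings between arrays, which shifted the median of all measured probes at 4 h by -0.40 to -0.12. Since all 5 shifts were downward, these scalings could not test the sign of ratios already below 0. Under those scalings 6 of the 15 probes were at least 2-fold lower, where the background also rose, to between 6.08% and 9.70% of all probes. In RNA of a whole culture, fewer cells with a transcript and less transcript per cell cannot be told apart.

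At 20 h and 32 h most of these probes were near the control, which was labelled 4 h. The median of the 9 probes was 0.06 at 20 h and 0.14 at 32 h, beside -0.003 and -0.006 over all measured probes. At 20 h, 1 of the 15 probes was at least 2-fold lower (*Ccnd1*, background 1.87% of all probes and 2.05% of those detected on both arrays) and 1 at least 2-fold higher (the dimmer *Cdkn1b* probe, background 0.763% and 0.704%). At 32 h, *Ccnd1* was again the 1 probe at least 2-fold lower (background 1.43% and 1.5%), and none was at least 2-fold higher (background 1.15% and 1.05%). Without scaling, the median of all measured probes lay 0.33 higher at 20 h and 0.18 higher at 32 h, which turned the sign of *Ccnd2* at both hours and of the brighter *Ccne1* probe at 20 h.

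**Figure D1:**
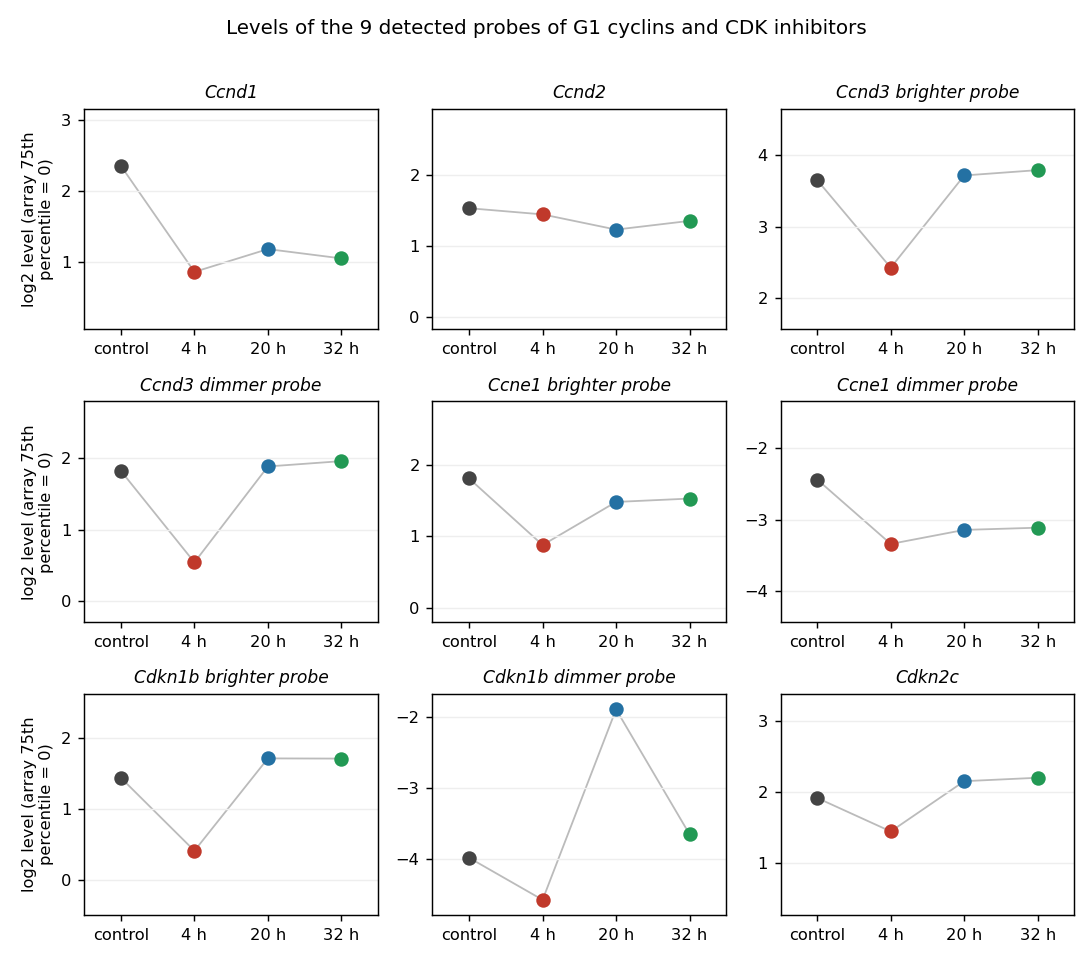
Log2 level of each of the 9 detected probes (vertical axis, array 75th percentile = 0) in the control and 4 h, 20 h and 32 h after cOS-pulse, 1 array per point and no error drawn; every panel spans the same number of log2 units. The 4 h point is the lowest in 8 of the 9 panels, *Ccnd2* being the exception, and only *Ccnd1* stays more than 2-fold below its control level at all 3 hours.

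*Ccnd1*, which encodes cyclin D1, the D-type cyclin under growth factor control, had a level of 2.35 in the control, 0.86 at 4 h, 1.18 at 20 h and 1.05 at 32 h (probe at chr7:152116202-152116261, minus strand). The control array, labelled 4 h, was the high one, and the 3 arrays after the pulse lay within 0.32 of each other. *Ccnd1* was 2.81-fold lower at 4 h (log2 ratio -1.49 ± 0.20), 2.25-fold lower at 20 h (-1.17 ± 0.20) and 2.46-fold lower at 32 h (-1.30 ± 0.20). The levels at 32 h and 20 h differed by 0.13 and those at 4 h and 32 h by 0.19, both less than the spot error of 0.20. Of all measured probes, 2.82% had a lower ratio than *Ccnd1* at 4 h, 1.35% at 20 h and 0.746% at 32 h. *Ccnd1* was the only one of the 15 probes at least 2-fold lower at all 3 hours, as were 0.561% of all probes, that is 221 probes, 11.4% of the 1947 past this threshold at 4 h. The call at 20 h did not hold under 2 scalings, with a log2 ratio of -0.97 after scaling to the 8 spike-in probes and -0.84 without scaling. Without the spike-in probe furthest from the others the ratio was -1.09.

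*Ccnd2*, which encodes cyclin D2, had a level of 1.53 in the control, 1.44 at 4 h, 1.23 at 20 h and 1.35 at 32 h (chr6:127098696-127098755, minus strand). The control was highest and 20 h lowest, and no neighbours in that order differed by more than the spot error. The log2 ratio over control was -0.09 ± 0.20 at 4 h, -0.30 ± 0.20 at 20 h and -0.18 ± 0.20 at 32 h, with 20 h and 32 h turning to 0.03 and 0.00 without scaling. Of the 9 detected probes, *Ccnd2* had the highest 4 h ratio and *Ccnd1* the lowest.

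*Ccnd3*, which encodes cyclin D3, was measured by 2 probes 312 bases apart on chromosome 17 (47736579-47736638 for the brighter and 47736267-47736326 for the dimmer, plus strand). The brighter probe had a level of 3.65 in the control, 2.42 at 4 h, 3.72 at 20 h and 3.79 at 32 h. The dimmer probe had 1.82, 0.54, 1.89 and 1.96 on the same arrays. The 4 h array was low for both probes, and the other 3 arrays lay within 0.14 of each other. At 4 h the log2 ratio over control was -1.23 ± 0.20 for the brighter and -1.28 ± 0.20 for the dimmer probe, that is 2.35-fold and 2.44-fold lower. At 20 h the ratios were 0.07 and 0.06 and at 32 h both were 0.14, each less than the spot error. From 4 h to 20 h the probes were higher by 1.30 ± 0.20 and 1.35 ± 0.20 on the log2 scale. The probes differed from each other by at most 0.05 in any of these comparisons.

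**Figure D2:**
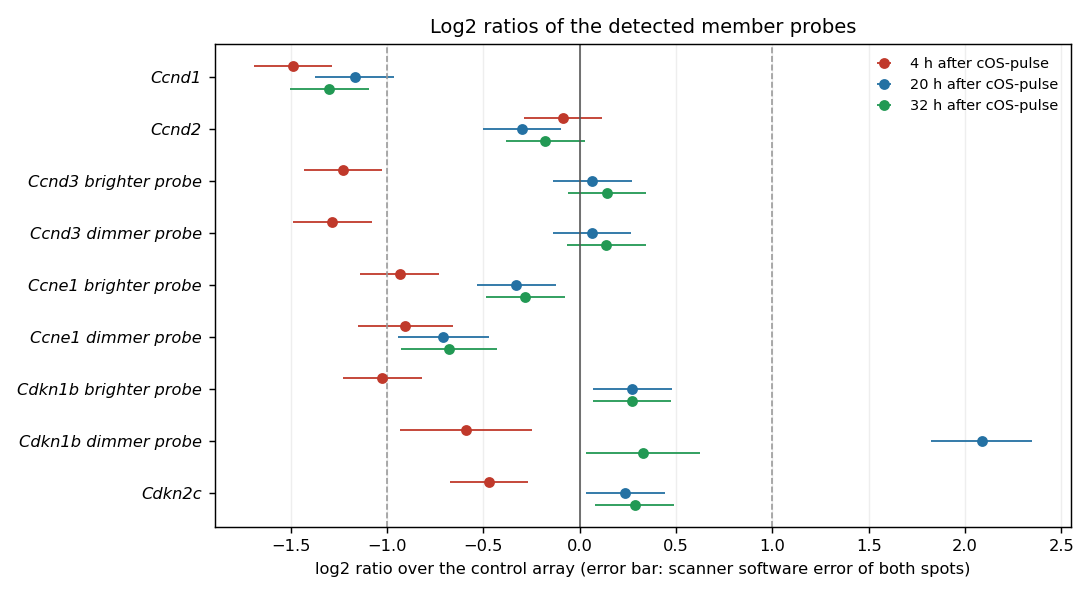
Log2 ratio over the control array (horizontal axis) of the 9 detected probes at 4 h, 20 h and 32 h after cOS-pulse, with error bars for the scanner software error of both spots and dashed lines at 2-fold. Both *Ccnd3* probes go from about -1.2 at 4 h to near 0, *Ccnd1* stays near or beyond the 2-fold line, and the dimmer *Cdkn1b* probe stands alone at 2.09 at 20 h.

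The promoters of *Ccnd3*, *Ccne1* and *Cdkn1b*, which were among the members lower at 4 h, were set side by side. For this, the 250 bases before each start site were read from RefSeq (GRCm38.p6, a later build than that of the probe positions). The table held 6 of the 10 genes and not *Ccnd1*, *Ccnd2*, *Ccne2* and *Cdkn1c*. Both strands were searched for the E-box CACGTG bound by BMAL1:CLOCK, the inverted heat shock element pair GAANNTTC, the antioxidant response element core TGACNNNGC, the E2F letters TTTNNCGC, the FOXO letters GTAAACA and the CCAAT box, where N is any base. These were held by 6.02%, 6.69%, 10.2%, 4.28%, 3.17% and 33.8% of the 32851 windows in the table, in that order. The windows of *Ccnd3* (start site 1 at chr17:47504801-47505050 and start site 2 at chr17:47593217-47593466, plus strand), *Ccne1* (chr7:38107491-38107740, minus strand) and *Cdkn1b* (chr6:134920151-134920400, plus strand) are shown 5′ to 3′ with every match in capitals.
Ccnd3 start site 1: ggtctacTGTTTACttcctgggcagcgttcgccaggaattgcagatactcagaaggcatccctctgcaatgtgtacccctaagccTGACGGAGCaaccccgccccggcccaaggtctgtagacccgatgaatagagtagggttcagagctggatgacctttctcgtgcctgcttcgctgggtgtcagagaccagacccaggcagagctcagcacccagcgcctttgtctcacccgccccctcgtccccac
Ccnd3 start site 2: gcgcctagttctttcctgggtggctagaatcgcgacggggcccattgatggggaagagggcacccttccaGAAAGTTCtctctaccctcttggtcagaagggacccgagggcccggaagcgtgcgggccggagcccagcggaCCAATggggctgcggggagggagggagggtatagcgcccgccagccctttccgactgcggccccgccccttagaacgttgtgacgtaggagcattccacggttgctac
Ccne1: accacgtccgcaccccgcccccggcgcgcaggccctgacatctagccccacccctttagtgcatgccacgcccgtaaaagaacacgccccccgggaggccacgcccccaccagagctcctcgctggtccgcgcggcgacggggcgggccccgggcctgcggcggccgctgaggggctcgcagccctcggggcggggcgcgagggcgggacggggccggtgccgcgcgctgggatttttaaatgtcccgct
Cdkn1b: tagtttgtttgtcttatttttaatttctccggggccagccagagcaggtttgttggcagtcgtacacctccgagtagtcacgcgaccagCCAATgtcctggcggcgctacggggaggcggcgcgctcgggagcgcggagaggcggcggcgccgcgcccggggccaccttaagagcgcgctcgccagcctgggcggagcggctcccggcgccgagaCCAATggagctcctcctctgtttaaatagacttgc
Start site 1 of *Ccnd3* held the FOXO letters on the minus strand 243 to 237 bases before the start and the antioxidant core 165 to 157 bases before it. Start site 2 held the heat shock pair 180 to 173 bases before the start and a CCAAT box at 108 to 104. *Cdkn1b* held CCAAT boxes at 161 to 157 and 35 to 31 bases before its start. *Ccne1* held none of the 6 motifs, in a window of 76.0% GC beside a median of 52.4% over all windows. No motif was shared by all 4 windows, none of the 4 held an E-box, and no matches overlapped. *Cdkn2c*, also below the control at 4 h with -0.47, had 2 start sites, neither with a match, and is not shown. A match is a run of letters and not a measured site.

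*Ccne1*, which encodes cyclin E1, the partner of CDK2 at the end of G1, was measured by 2 probes 2637 bases apart on chromosome 7, and its promoter is shown above. The brighter probe had a level of 1.81 in the control, 0.88 at 4 h, 1.48 at 20 h and 1.53 at 32 h. The dimmer probe had -2.44, -3.34, -3.14 and -3.11 on the same arrays. For both probes the control was highest and 4 h lowest. The log2 ratio at 4 h was -0.94 ± 0.20 for the brighter probe and -0.90 ± 0.25 for the dimmer, so that both were lower by less than 2-fold (1.91-fold and 1.87-fold). Under 4 of the 5 other scalings both probes were beyond 2-fold at 4 h, and with quantile normalization the brighter probe had -0.95 and the dimmer -1.20.

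The *Ccne1* probes parted at the later hours. The brighter probe had -0.33 ± 0.20 at 20 h and -0.28 ± 0.20 at 32 h, and the former was 0.00 without scaling. The dimmer probe had -0.71 ± 0.23 at 20 h and -0.68 ± 0.25 at 32 h, of the same sign under all scalings. The dimmer ratio minus the brighter was -0.38 ± 0.31 at 20 h and -0.39 ± 0.32 at 32 h, slightly larger than its error. From 4 h to 20 h the brighter probe was higher by 0.61 ± 0.20 and the dimmer by 0.20 ± 0.25.

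*Ccne2*, which encodes cyclin E2, was not well above background in any condition. Its level of -7.26 to -6.81 lay 2.09 to 2.15 under the lowest detected probe of the same array. The one probe of this gene had a GC content of 15.0%, the lowest of the 15, beside 30.0% to 51.7% for the others. No ratio was taken, and a low level of the transcript below this limit was not detectable on these arrays.

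*Cdkn1b*, which encodes p27, the inhibitor of cyclin E-CDK2 and cyclin A-CDK2 complexes, had 2 probes on chromosome 6, 1818 bases apart, the brighter annotated to a RefSeq and the dimmer to an Ensembl transcript. The brighter probe (134875424-134875483, plus strand) had a level of 1.44 in the control, 0.41 at 4 h, 1.71 at 20 h and 1.71 at 32 h. The 4 h array was low, and the arrays at 20 h and 32 h were equal within 0.003. At 4 h it was 2.03-fold lower (log2 ratio -1.02 ± 0.20), just past the threshold, and with normexp background correction the ratio was -0.98. At 20 h and 32 h the ratio was 0.27 ± 0.20 at both hours, of the same sign under all scalings.

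The dimmer *Cdkn1b* probe (134873606-134873665, plus strand) had a level of -3.98 in the control, -4.57 at 4 h, -1.89 at 20 h and -3.65 at 32 h. The 20 h array alone was high, and the other 3 lay within 0.92 of each other, at most 1.08 above the lowest detected probe of their array. The log2 ratio over control was -0.59 ± 0.34 at 4 h, 2.09 ± 0.26 at 20 h, which is 4.25-fold higher, and 0.33 ± 0.30 at 32 h. With normexp background correction it was 1.22 at 20 h and -0.13 at 4 h. At 20 h it exceeded the ratio of the brighter probe of the same gene by 1.81 ± 0.33, while at 32 h the probes differed by 0.06 ± 0.36.

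Spots printed near the dimmer *Cdkn1b* spot were also high on the 20 h array alone. Of the 48 spots within 3 rows and columns of it, 3 (6.25%) had a 20 h signal at least 2-fold above all 3 other arrays, beside 0.951% of the 44397 spots of the array. One of the 3 was a control spot in the next row and column with a level of -2.05 at 20 h and -7.27 to -7.04 on the other arrays. Around the other detected member spots, 0 or 1 of 44 to 48 spots were high at 20 h alone. The undetected dimmer *Cdkn2a* spot also had 3 of 48 such spots around it, with its own 20 h level at -7.29. Around the dimmer *Cdkn1b* spot, 2 of 48 spots (4.17%) were high in the control alone, beside 1.46% of all spots. The part of the patch around the dimmer *Cdkn1b* spot in its 20 h value was not tested. The brighter probe, with no such spot among the 46 around it, had 0.27 ± 0.20 at that hour.

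*Cdkn1c*, which encodes p57, the other Cip/Kip member of the set, was not well above background in any condition, with levels of -7.40 to -6.54, at least 1.61 under the lowest detected probe. No ratio was taken for it.

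*Cdkn2c*, which encodes p18, an Ink4 inhibitor of CDK4 and CDK6, was the only detected Ink4 gene of the set. Its level was 1.92 in the control, 1.45 at 4 h, 2.15 at 20 h and 2.20 at 32 h (chr4:109333508-109333567, minus strand). The 4 h array was lowest, and 20 h and 32 h differed by 0.05, less than the spot error. The log2 ratio over control was -0.47 ± 0.20 at 4 h, 0.24 ± 0.20 at 20 h and 0.28 ± 0.20 at 32 h, within 2-fold throughout and of the same sign under all scalings. From 4 h to 20 h it was higher by 0.71 ± 0.20.

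*Cdkn2a*, which encodes p16 and Arf, and *Cdkn2b*, which encodes p15, lie next to each other on chromosome 4 and had 2 probes each. None of these 4 probes was detected, and their levels of -7.29 to -5.74 sat around the median of the 153 negative control spots, which was -7.21 to -6.73. The one value apart was the brighter *Cdkn2a* probe at 20 h with -5.74, beside -6.91 to -6.59 on the other arrays, still 0.63 under the lowest detected probe. Of the 47 spots around it, 14 (29.8%) were at least 2-fold higher on the 20 h array than on all others, so this value also lay in a bright patch of that array.

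Detection of the genes that flank *Cdkn2a* and *Cdkn2b* differed by gene. *Mtap*, an enzyme of methionine salvage whose probe lies 94.1 kb from the nearest *Cdkn2a* or *Cdkn2b* probe, had levels of 1.62 in the control, 1.38 at 4 h, 1.60 at 20 h and 1.56 at 32 h. A probe named *LOC100505024*, 56.7 kb away on the same side, was also detected on all 4 arrays. *Gm12603*, further out on that side, and *Dmrta1*, 408 kb away on the other side, were detected on none. Further out on that other side, 939 kb away, 1 *Zfp352* probe was detected on all 4 arrays and another on 1. These genes were looked up after the values of *Cdkn2a* and *Cdkn2b* were seen. RNA levels do not show whether the locus is present in this line, and all 4 arrays used the same line.

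**Figure D3:**
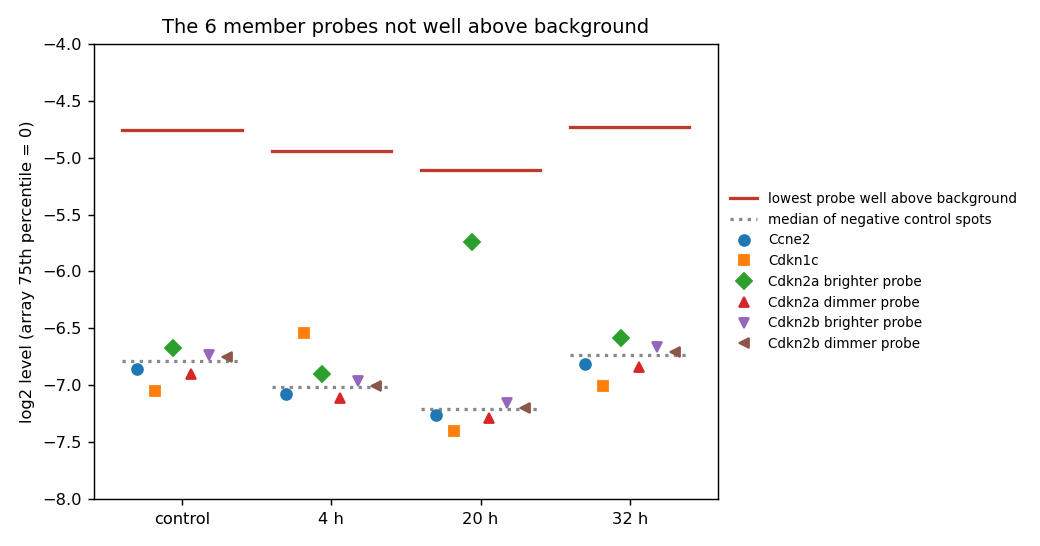
Log2 level (vertical axis, array 75th percentile = 0) of the 6 member probes that were not detected, with a solid line at the lowest detected probe and a dotted line at the median of the negative control spots of each array. All points lie under the solid line, and the brighter *Cdkn2a* probe at 20 h, at -5.74, comes nearest to it.

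At 20 h, the median log2 ratio of the 6 measured cyclin probes was -0.32 and that of the 3 measured inhibitor probes 0.27. At 32 h the medians were -0.23 and 0.28. The 3 inhibitor probes were all above 0 at both hours, whereas 4 of the 6 cyclin probes, those of *Ccnd1*, *Ccnd2* and *Ccne1*, were below 0 and the *Ccnd3* probes above it. Over all measured probes, 10125 of 20448 were above 0 at 20 h and 9806 of 19969 at 32 h. With so few member probes, these signs are not read as a contrast. Without scaling, *Ccnd2* and the brighter *Ccne1* probe at 20 h and *Ccnd2* at 32 h no longer lay below 0. Of the 3 inhibitor probes 2 are on the same gene, and no difference between cyclins and inhibitors was tested.

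**Figure D4:**
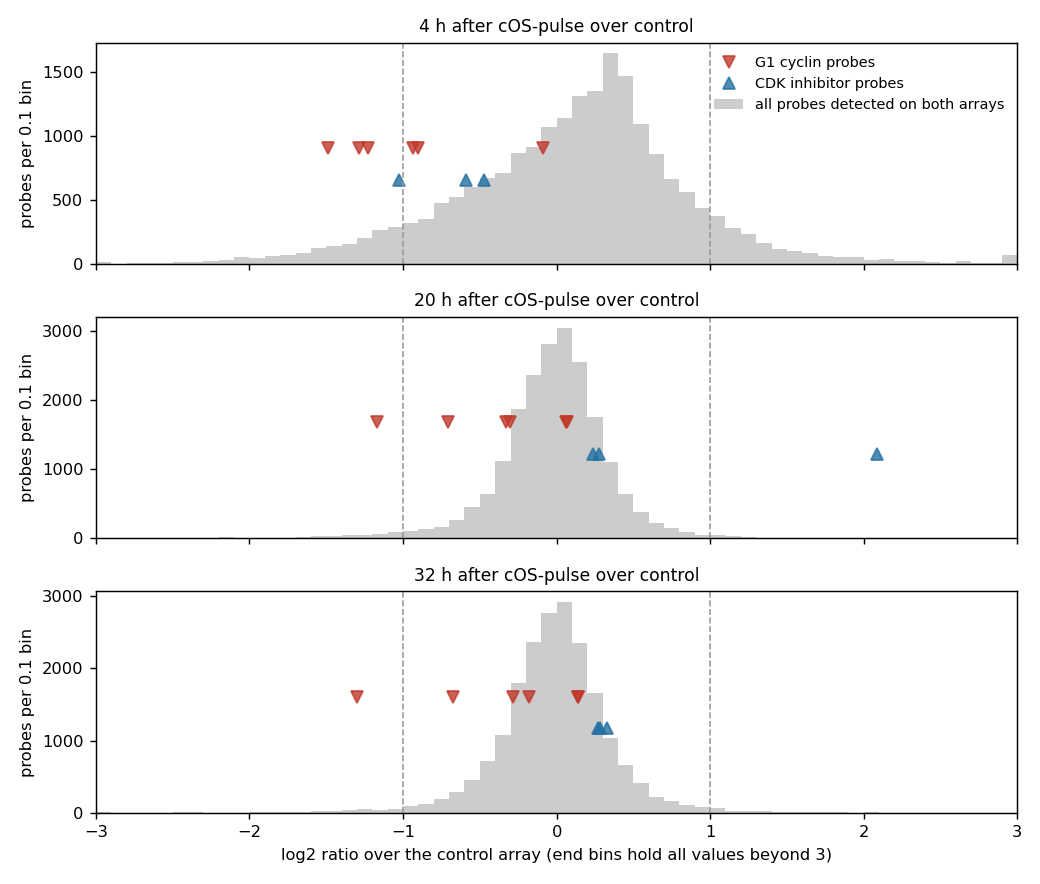
Histograms of the log2 ratio over control (horizontal axis) of all probes detected on both arrays, in bins of 0.1 (vertical axis, probes per bin), at 4 h, 20 h and 32 h, with triangles for G1 cyclin probes and CDK inhibitor probes (their height has no meaning) and dashed lines at 2-fold. At 4 h all 9 triangles lie below 0, while the median of all probes is 0.17; at 20 h and 32 h the *Ccnd1* triangle, at -1.17 and -1.30, lies apart from the other cyclins.

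The comparison of 20 h with 32 h addressed circadian change. Here 1 of the 15 probes was at least 2-fold higher at 20 h (background 0.497% of all probes and 0.193% of those detected on both arrays), the dimmer *Cdkn1b* probe with 1.76 ± 0.25, and none was at least 2-fold lower (background 1.06% and 0.449%). The other 8 detected probes had log2 ratios of 20 h over 32 h of -0.12 to 0.13, all less than the spot error of at least 0.20. For 7 of these 8 the sign changed under at least 1 of the other scalings, while *Ccnd1* stayed at 0.12 to 0.28. The brighter *Cdkn1b* probe had 0.00 ± 0.20.

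By the pattern over the 3 ratios, the probes of other genes nearest to *Ccnd1* among 14970 detected probes were those of *Anxa3*, an annexin (Euclidean distance 0.16), *Nrp1*, a semaphorin and VEGF co-receptor (0.17), and *Nrn1* (0.20). *Nrp1* had log2 ratios of -1.53 at 4 h, -1.28 at 20 h and -1.18 at 32 h. Nearest to *Ccnd2* were *Krtap9-1* (0.037), *Maged1* (0.037) and *Chsy1* (0.051). The 3 ratios share the control array.

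The other genes of the G1 pathway differed among themselves at 4 h. For the 4 h counts of all lists below, the background was 6.77% of all probes higher and 4.94% lower. Each count is out of all probes of its list, those without a ratio included (4 of 11 for the regulators). A single probe past 2-fold is not read as a result about its list. Of the 4 probes of the 2 remaining CDK inhibitor genes, 3 were at least 2-fold higher and 1 lower. *Cdkn1a*, which encodes p21, the Cip/Kip inhibitor under p53 control, was higher by 3.57 ± 0.06 on the log2 scale with its probe on 10 spots (level 0.40 in the control and 3.97 at 4 h), by 1.97 ± 0.26 with another probe, and at least 5.84-fold higher with the third, which was not well above background in the control. At the later hours the *Cdkn1a* probes parted. The probe on 10 spots was still higher by 1.30 at 20 h and 1.32 at 32 h. For the probe with 1.97 at 4 h the log2 ratios were -0.63 ± 0.32 and -0.49 ± 0.34 in that order, below 0 under the 5 other scalings too. *Cdkn2d*, which encodes p19, the fourth Ink4 inhibitor, had a log2 ratio of -2.03 ± 0.20 at 4 h, and 0.58 and 0.52 at the later hours. Each of these 4 h calls held under all 5 scalings. At 4 h the Cip/Kip genes *Cdkn1a* and *Cdkn1b* thus had ratios of opposite sign.

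Among the CDKs and the CDK-activating kinase, 1 of 9 probes was at least 2-fold higher at 4 h (*Cdk7*, 1.12 ± 0.20) and 1 lower (*Cdk2*, -1.13 ± 0.26). The 3 probes of *Cdk4*, the catalytic partner of the D-type cyclins, had 0.02 to 0.07, and turned negative under all 5 other scalings. The *Cdk7* call did not hold under 3 of the 5. Of 4 pocket protein probes, 2 were lower (*Rbl1*, -2.28 ± 0.22, and *Rbl2*, -1.15 ± 0.22), under all 5 other scalings too. The other *Rbl1* probe, not detected at 4 h, had a bound of -0.95, past 2-fold under all 5 other scalings. *Rb1* had 0.40 ± 0.07, and -0.003 at the lowest of those scalings.

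Of 14 E2F and DP probes, 5 passed the 2-fold threshold downward at 4 h and 1 upward (background 4.94% and 6.77% of all probes). *E2f8* had -2.16 ± 0.22, one *E2f7* probe -1.73 ± 0.21 and the other 0.29 ± 0.26, both *Tfdp2* probes -1.47 and -1.48, and *E2f2* -1.01 ± 0.22, while one *E2f3* probe had 1.48 ± 0.24 and the other 0.82 ± 0.20. None of the 14 probes of the ubiquitin ligases that degrade G1 cyclins and p27 was past 2-fold at 4 h, and *Skp2*, which targets p27, had 0.32 ± 0.21. Of 11 probes of regulators of member transcription, 1 was higher (*Foxo3*, 1.11 ± 0.30, past 2-fold under none of the other scalings, its other probe 0.51 ± 0.35) and none lower, while 1 *Foxo1* probe, at -0.79, was past 2-fold downward under 3 of the 5 other scalings. *Myc* had 0.43 ± 0.20.

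Of 10 probes of proliferation markers, 9 were at least 2-fold lower at 4 h under the main and all 5 other scalings, with a median of -2.18 over the 9 measured probes. *Ccna2*, the S phase cyclin, had -2.74 ± 0.21, *Mki67* -2.18 and -2.19, and *Pcna* alone was within 2-fold at -0.20 ± 0.20. These transcripts moved with the G1 members at 4 h, and their part in that result was not tested. At 20 h and 32 h none of the 10 was past 2-fold, with medians of -0.14 and -0.58. The background was 0.763% of all probes higher and 1.87% lower at 20 h, and 1.15% and 1.43% at 32 h. With shares this low, none of 10 is not read as a result. Among the G1 gene lists and the proliferation markers, the only probes past 2-fold at 20 h were 2 of *Cdkn1a*, higher, and 1 of the 2 of *Fbxo31*, an F-box protein for cyclin D1, lower at -1.05, and at 32 h the 2 of *Cdkn1a*. The *Fbxo31* call held under 2 of the 5 other scalings, which ranged up to -0.72.

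**Figure D5:**
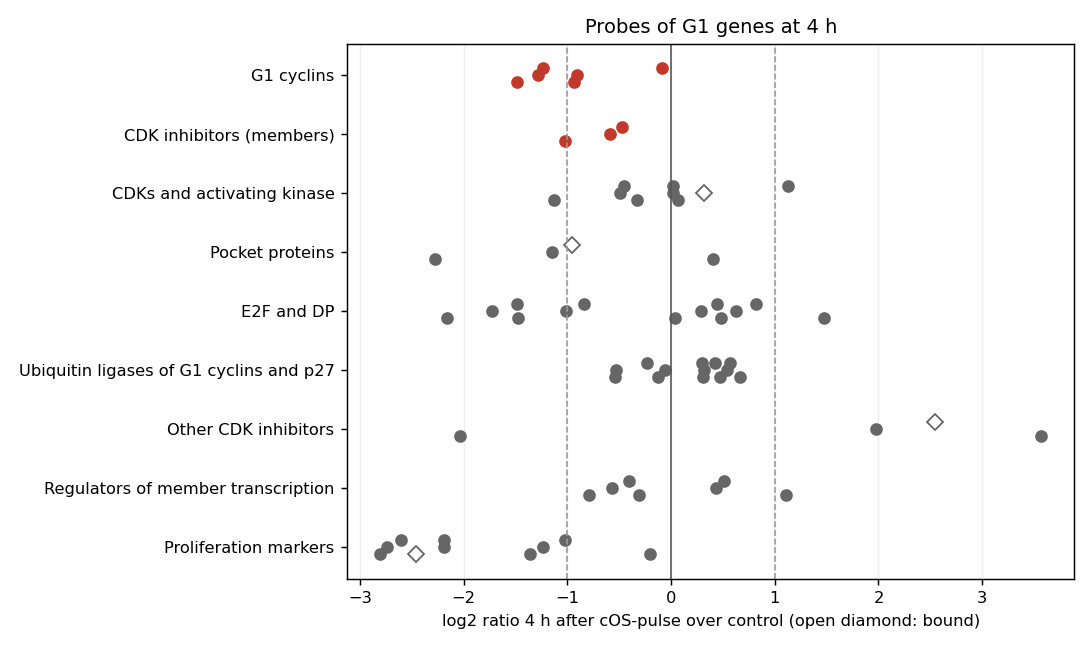
Log2 ratio of 4 h over control (horizontal axis) for each probe of the member cyclins and inhibitors (red) and of the other G1 gene lists and proliferation markers (grey), 1 point per probe, open diamonds for bounds and dashed lines at 2-fold. The 9 member probes lie between -1.49 and -0.09, the *Cdkn1a* probes up to 3.57 lie furthest right, and 9 of 10 proliferation marker probes lie beyond -1.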

How the data were processed

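Total RNA was labelled with Cy3 and hybridized to one-color Agilent Mouse GE 4x44K v2 arrays, 1 per condition. The authors deposited the intensity of each spot from Agilent Feature Extraction 10.7.3.1, with background subtracted, and a table of the same signal divided by 1 constant per array. The log2 of the deposited intensity was taken, outlier-flagged spots were left out, replicate spots were averaged, and each array was centred on its 75th percentile. Detection needed the well-above-background mark on 50% or more of a probe's spots. Where 1 array of a pair detected it, the ratio was a bound, taken over the lowest detected level of the dim array or the dim signal, whichever was higher. The threshold was 2-fold, and shares of all probes are called background. With 1 array per condition no test was run, and the SAM named in the methods was not repeated. The number of arrays limits the precision.

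All member probes were named, beside probes of the other G1 lists at least 2-fold from the control with some within 2-fold, and the 3 probes nearest in pattern to the members with the highest and lowest 4 h ratio. Members and lists were chosen with earlier results of these data known. Alternatives were 5 scalings, normexp (offset 50), no detection filter, no bounds, flagged spots kept, a 1.5-fold threshold, 1 value per gene and the deposited table, and, added after the data were seen, spike-in scaling without 1 probe. The steps were tested on simulated data. Python 3.11.15, numpy 2.4.6, pandas 2.3.3 and limma 3.58.1 in R 4.3.3 were used.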

Additional observations from a re-analysis of the deposited data

Results flagged for a closer look

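3 probes were flagged because their ratio over the control had one sign at 4 h and the opposite sign at a later hour, each by more than the spot error. The brighter *Cdkn1b* probe had a log2 ratio of -1.02 ± 0.20 at 4 h, 0.27 ± 0.20 at 20 h and 0.27 ± 0.20 at 32 h. *Cdkn2c* had -0.47 ± 0.20 at 4 h, 0.24 ± 0.20 at 20 h and 0.28 ± 0.20 at 32 h. The dimmer *Cdkn1b* probe had -0.59 ± 0.34 at 4 h, 2.09 ± 0.26 at 20 h and 0.33 ± 0.30 at 32 h, and 3 of the 48 spots around it were high on the 20 h array alone. These differences between hours were not tested, and all 3 ratios of a probe share the control array.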

How the results depend on the processing

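With 1 array per condition, no spread between cultures is known, and ratios near the spot error of 0.20 cannot be read. Of 104 counts of member probes under the alternatives, 97 stayed within 1.5 times the main count. By that rule, the rise from 4 to 6 probes lower at 4 h under the other scalings is within it. Keeping flagged spots or leaving out bounds could hardly move a count, since no member spot was flagged and no member ratio was a bound. No direction of a called ratio reversed. At 4 h the other scalings could not reverse one, since the called ratios were below 0 and the shifts downward. With a 1.5-fold threshold, the member probes lower at 4 h were 7 (background 9.88% of all probes). The count lower at 20 h was 0 with spike-in scaling and 0 without scaling, since *Ccnd1* came to -0.97 and -0.84. With 1 value per gene, the brighter probe, the counts higher at 20 h were 0 over the control and 0 over 32 h, since the dimmer *Cdkn1b* probe is left out by construction. Of 360 log2 ratios of single probes under the alternatives, 310 moved by less than the spot error. This count pools all comparisons with alternatives such as no detection filter, which cannot move the ratio of a detected probe. At 4 h, every measured member ratio moved by more than the spot error under median scaling and under spike-in scaling. For all probes, the higher share of those past 2-fold at 4 h was 57.8%, and 25.6% to 46.7% under the other scalings. At 20 h it was 29.0%, and 27.7% to 65.4%. At 32 h it was 44.4%, and 43.3% to 62.7%. No paired analysis was possible because each condition had 1 array and the labels carry no replicate numbers.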

Other observations

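Probes of other genes within 15000 bases of a member probe were read after the member values were seen. Near *Ccnd1*, both probes of *Oraov1* were detected on all arrays and had log2 ratios of 4 h over control of 0.21 ± 0.20 and 0.26 ± 0.40, beside -1.49 ± 0.20 for *Ccnd1*. Near *Ccnd3*, *Bysl*, which takes part in ribosome assembly, had 0.57 ± 0.20 at 4 h and -0.12 ± 0.20 at 20 h, beside -1.23 ± 0.20 and 0.07 ± 0.20 for the brighter *Ccnd3* probe. Near *Ccne2*, which was not well above background, *Ints8*, an Integrator subunit, was detected on all 4 arrays with 0.23 ± 0.21 at 4 h. Near *Cdkn2c*, *9630013D21Rik* had -0.95 ± 0.24 at 4 h and a probe without a gene name 1.20 ± 0.22, beside -0.47 ± 0.20 for *Cdkn2c*.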
